A study of Mus musculus with 12 samples.

Results

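The contractile genes described here are 10 genes of myofibroblasts that depend on the transcription factor SRF and its MRTF coactivators: Acta2, Tagln, Cnn1, Cnn2, Myl9, Tpm1, Tpm2, Actg2, Srf and Acta1. They were taken from a list by symbol. All 10 were among the 33246 genes of the deposited count table and all 10 passed the filter on low counts, as did 14542 genes in all. RNA was sequenced from primary fibroblasts of the ears of 1-month-old mice of both sexes (C57BL/6), expanded in serum-containing medium and used at passage 2. The cells were kept on alginate hydrogels for 48 h before poly(A) RNA was taken. The design asked whether the viscoelasticity of the gel changes gene expression, and whether it does so differently at each stiffness.

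The 4 groups of 3 samples were elastic gels of 2 kPa, elastic gels of 20 kPa, viscoelastic gels of 2 kPa and viscoelastic gels of 20 kPa. All gels carried the adhesion peptide RGD. The elastic gels were crosslinked covalently and the viscoelastic, slow-relaxing gels were crosslinked ionically with calcium, so gel chemistry and viscoelasticity cannot be told apart in these groups. The study calls the samples biological replicates. How many mice each sample came from, and whether replicates came from separate mice, is not given in the sources used here, so the p-values measure the spread between these samples. In RNA from whole cultures, fewer cells that express a gene and less RNA per cell cannot be told apart. Between 36626221 and 43612804 counts were assigned to genes per sample, and the contractile genes drew from 167 counts (Acta1, a 2-kPa elastic sample) to 34873 counts (Acta2, a 20-kPa elastic sample).

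Myofibroblasts are fibroblasts that build bundles of actin and myosin resembling those of smooth muscle and that pull on the matrix around them. In textbook accounts, monomeric actin holds the coactivators MRTF-A and MRTF-B in the cytoplasm. When RhoA signalling drives actin into filaments, the coactivators enter the nucleus, bind SRF and turn on genes whose promoters hold the SRF binding motif, the CArG box. The program is known for its response to stiff substrates and to TGF-beta, and alpha-smooth muscle actin, the product of Acta2, is the usual marker of the myofibroblast state.

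The CArG box is CC, then a run of 6 bases that are each A or T, then GG, and it reads the same way on either strand. It was searched for in the RefSeq promoter windows of GRCm38.p6, which run from 250 bases before to 50 after each annotated start. Windows were given for 8 of the 10 genes, all but Tagln and Actg2. An exact CArG box was present in the windows of 4 of these 8 genes (50%), Cnn2, Myl9, Srf and Acta1, against 1.63% of all 32851 windows. With up to 1 mismatch, 6 of the 8 windows (75%) held a match, those of Acta2 and Tpm1 in addition, against 21.1% of all windows. Srf itself had 2 exact boxes, 82 and 62 bases before its start, and 0.0183% of all windows held 2 or more. Cnn1 and Tpm2 had no match in the window. The 10 genes were listed for their dependence on SRF, so shares above those of all windows are no separate support for it. A match to these letters is a description of the sequence and does not show that SRF binds there.

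The promoter stretches with an exact box are printed to show where the motif lies, in the direction of transcription, with matches of up to 1 mismatch in capitals. Each stretch begins 250 bases before the RefSeq start and ends where the first annotated exon begins, except in Acta1. There the annotated exon begins after the RefSeq start, and the stretch ends just before that start. They lie at chr17:46556176-46556412 (Srf, minus strand), chr10:79988350-79988583 (Cnn2, plus strand), chr2:156775214-156775419 (Myl9, plus strand) and chr8:123894776-123895025 (Acta1, minus strand).
Srf: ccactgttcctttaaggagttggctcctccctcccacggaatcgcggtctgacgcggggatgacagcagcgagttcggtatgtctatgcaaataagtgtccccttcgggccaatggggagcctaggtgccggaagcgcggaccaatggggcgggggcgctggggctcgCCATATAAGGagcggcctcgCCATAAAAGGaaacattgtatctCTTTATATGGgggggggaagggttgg
Cnn2: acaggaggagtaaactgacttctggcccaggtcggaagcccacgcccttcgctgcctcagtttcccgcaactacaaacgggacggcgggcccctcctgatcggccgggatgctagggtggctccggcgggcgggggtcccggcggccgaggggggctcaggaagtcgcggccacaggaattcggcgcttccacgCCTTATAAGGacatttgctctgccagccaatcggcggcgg
Myl9: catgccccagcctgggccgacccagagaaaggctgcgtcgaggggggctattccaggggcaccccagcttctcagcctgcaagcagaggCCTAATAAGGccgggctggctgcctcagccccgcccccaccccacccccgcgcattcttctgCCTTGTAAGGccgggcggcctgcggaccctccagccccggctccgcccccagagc
Acta1: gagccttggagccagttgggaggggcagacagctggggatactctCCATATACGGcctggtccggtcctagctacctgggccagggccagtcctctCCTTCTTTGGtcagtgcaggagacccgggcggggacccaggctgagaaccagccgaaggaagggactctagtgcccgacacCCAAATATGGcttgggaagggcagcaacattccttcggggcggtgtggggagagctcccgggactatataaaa
The 3 capitalized stretches of Srf lie close together, within the last 82 bases before its start, and the exact box of Acta1 lies 73 bases before its start. In Myl9 the exact box lies 161 bases before the start and a 1-mismatch match follows at 99 bases. For Acta2 the matches, each with 1 mismatch, were CCCTATATGG at 84 bases and CCTTGTTTGG at 34 bases before the RefSeq start, at chr19:34255448-34255457 and chr19:34255398-34255407. The GENCODE annotation begins Acta2 further upstream, so 217 of the 250 bases before the RefSeq start are exon there, and no longer stretch of Acta2 is printed.

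Levels can be compared between genes only per length, here as CPM per kb of annotated exon, where CPM is the count per 1000000 counts after TMM scaling of the libraries. On this scale Acta2 was the highest of the 10 genes in every group, with group means from 240.4 on 2-kPa elastic to 356 on 20-kPa elastic gels. Cnn2, the calponin that non-muscle cells also make, came next at 87.3 to 118. The tropomyosins Tpm1 (67.1 to 88.4) and Tpm2 (50.1 to 70.7) and the regulatory myosin light chain Myl9 (45.4 to 62.9) formed a middle range. Tagln, Actg2, Srf, Cnn1 and Acta1 lay far below, with group means between 3.28 (Acta1) and 19.9 (Tagln). The low place of Tagln is uncertain. Tagln encodes transgelin (SM22-alpha), an actin-binding protein of smooth muscle. Of its 1988 exon bases at chr9:45929619-45936058, 67.9% also lie in exons of genes on the opposite strand, Gm48529 and Pcsk7. Gm48529, which overlaps 62.4%, is not among the genes of the deposited count table, while Pcsk7, which overlaps 5.43%, is. Reads in the shared bases may not have been counted for Tagln if strand was not used and the other gene was in the annotation. The strand setting is not given in the sources used here. The exons of the other 9 genes overlapped no other gene.

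**Figure D1:**
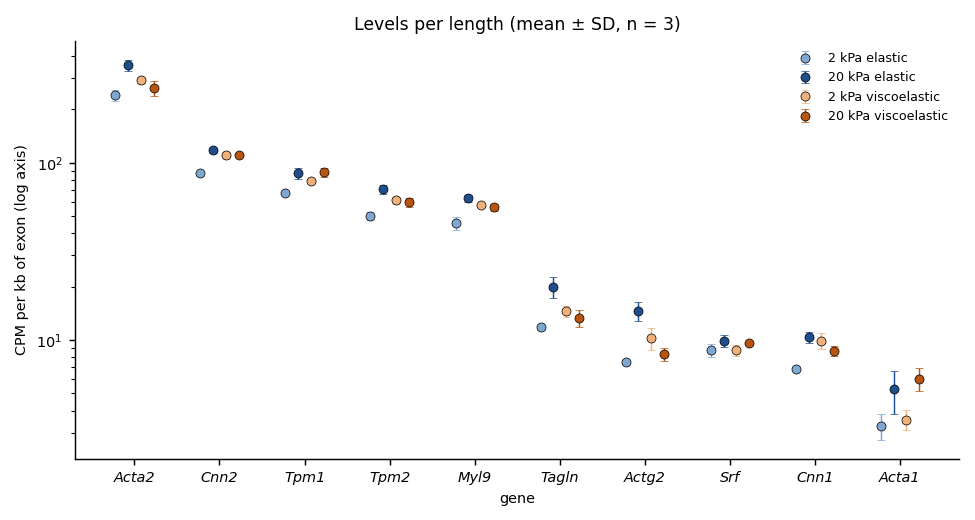
Levels per length of the 10 contractile genes, in CPM per kb of annotated exon on a log axis, with points for the means and bars for the SD of the 3 samples of each group. Acta2 lies highest, at 240.4 to 356, and the level of Tagln is uncertain because other genes overlap its exons.

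Acta2 also made up a sizeable share of the actin message as counted. Among the 6 actin genes, by CPM per kb, it took 21.6% ± 0.448 (SD, n = 3) on 2-kPa elastic, 24.9% ± 1.19 on 20-kPa elastic, 24.4% ± 1.27 on 2-kPa viscoelastic and 20.1% ± 1.70 on 20-kPa viscoelastic gels. Actb, the cytoplasmic beta-actin, held 66.5% to 72.8%, and the other smooth muscle actin, Actg2, 0.637% to 1.02%. Acta1 stayed between 0.295% and 0.462% in group means. These shares depend on how reads that match several genes were counted, which is not given in the sources used here. The stretches that Actb and Actg1 share with all other genes were not measured, and their part in the shares was not tested.

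The contractile genes were lowest in the same group. In 10 of 10 genes the mean CPM was lowest on 2-kPa elastic gels. In Srf the 2-kPa elastic and viscoelastic means were nearly equal, at 25.307 and 25.324 CPM. In Acta1 they were 5.04 and 5.47 CPM, and in both genes the samples of these groups overlapped. The share of all tested genes with their lowest mean on 2-kPa elastic gels was not counted. For the 10 genes, the highest mean also fell on few groups. It lay on 20-kPa elastic gels in 8 genes and on 20-kPa viscoelastic gels in Tpm1 and Acta1. In 6 genes (Acta2, Tagln, Cnn1, Myl9, Tpm2 and Actg2) the order of means, from low to high, was 2-kPa elastic, 20-kPa viscoelastic, 2-kPa viscoelastic and 20-kPa elastic. In these 6 genes the samples of the middle groups overlapped, so that the order between those groups is not resolved. The summed CPM of the 10 genes was 1461 ± 57.3 (SD, n = 3) on 2-kPa elastic, 2045 ± 130.1 on 20-kPa elastic, 1770 ± 51.3 on 2-kPa viscoelastic and 1763 ± 98.9 on 20-kPa viscoelastic gels.

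**Figure D2:**
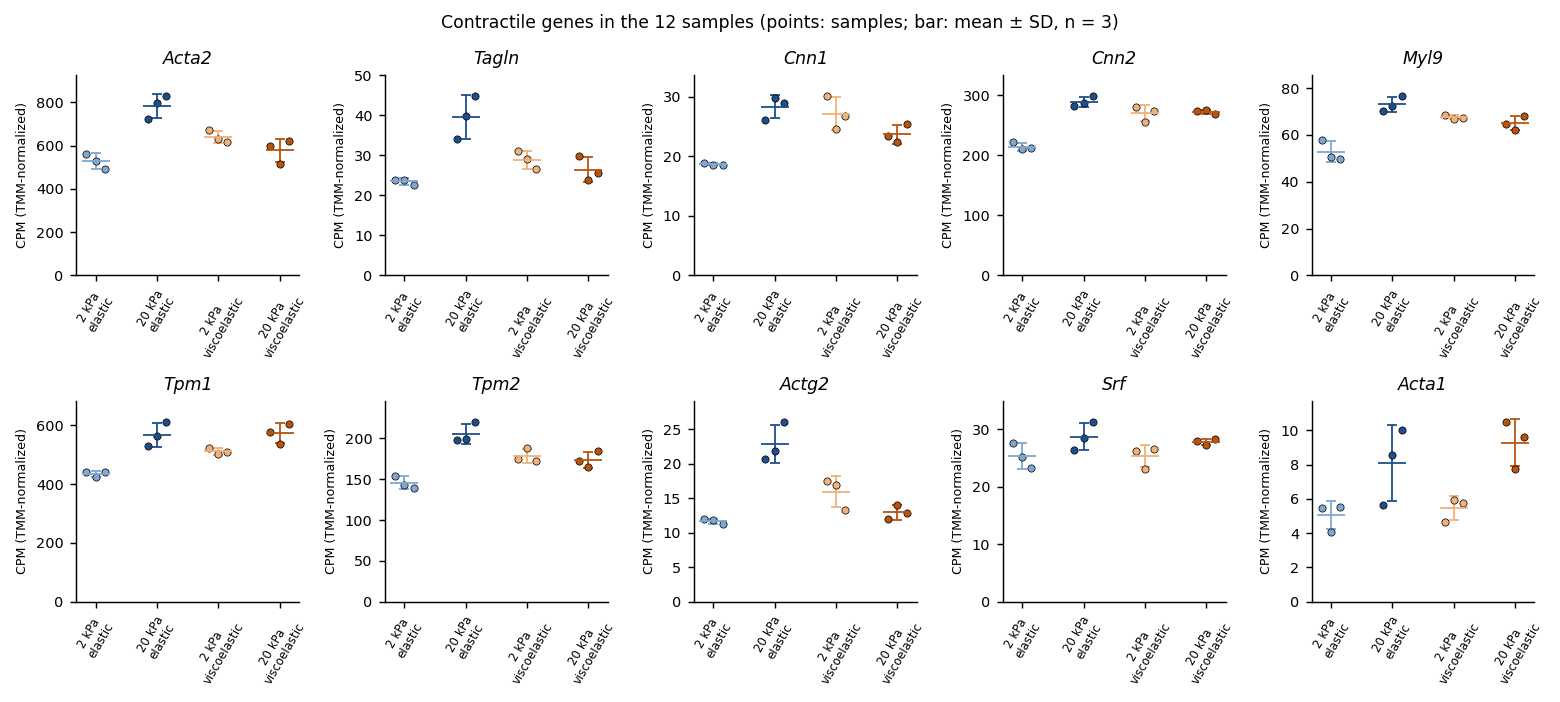
TMM-normalized CPM of the 10 contractile genes in the 12 samples, 1 panel per gene with an axis from 0, with points for samples and bars for the mean and SD of the 3 samples of each group. The mean on 2-kPa elastic gels is the lowest in all 10 panels, though in Srf that on 2-kPa viscoelastic gels is nearly equal. The mean on 20-kPa elastic gels is the highest in 8.

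The actins come first. For Acta2 the 2-kPa elastic samples had 563, 529.8 and 491 CPM, the 20-kPa elastic samples 721, 795 and 829, the 2-kPa viscoelastic samples 672, 629 and 618, and the 20-kPa viscoelastic samples 596, 517 and 619.8. All 3 samples on 20-kPa elastic gels were above the other 9 samples. The 2-kPa elastic samples all lay below the 2-kPa viscoelastic ones, but 1 of the 20-kPa viscoelastic samples fell among them. Actg2, the gamma smooth muscle actin, had 11.9, 11.8 and 11.3 CPM on 2-kPa elastic, 20.7, 21.8 and 26.0 on 20-kPa elastic, 17.5, 16.9 and 13.3 on 2-kPa viscoelastic, and 11.98, 14.1 and 12.8 on 20-kPa viscoelastic gels. Its group means spanned 1.96-fold from lowest to highest, the widest range of the 10 genes, and its 20-kPa elastic samples again stood above all others. Acta1, the skeletal muscle actin, had another order of groups. Its CPM values were 5.47, 4.09 and 5.54 on 2-kPa elastic, 5.65, 8.57 and 10.03 on 20-kPa elastic, 4.67, 5.95 and 5.77 on 2-kPa viscoelastic, and 10.5, 7.74 and 9.63 on 20-kPa viscoelastic gels. Both 20-kPa groups were above both 2-kPa groups in their means, and the 20-kPa elastic samples spread most, with 1 of them within the range of the 2-kPa viscoelastic samples. Acta1 shared 2.02% of its 50-base stretches with other genes and Acta2 0.326%. Actb, the abundant cytoplasmic actin, held 28 of the 31 shared stretches of Acta1. The handling of reads that match several genes is not given in the sources used here, and their part in the low level of Acta1 was not tested.

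The calponins and transgelin regulate the binding of myosin to actin or bundle actin filaments. Cnn1, the calponin of differentiated smooth muscle, had 18.9, 18.6 and 18.6 CPM on 2-kPa elastic, 26.1, 29.8 and 29.0 on 20-kPa elastic, 30.1, 24.5 and 26.9 on 2-kPa viscoelastic, and 23.4, 22.4 and 25.5 on 20-kPa viscoelastic gels. The 2-kPa elastic samples were almost identical to each other and lay below the other 9. Cnn2 had 222, 210.3 and 212 CPM on 2-kPa elastic, 282, 287 and 299 on 20-kPa elastic, 281, 256 and 274 on 2-kPa viscoelastic, and 273, 276 and 269 on 20-kPa viscoelastic gels. As in Cnn1, the 2-kPa elastic samples lay below the other 9, and the 20-kPa elastic samples were the highest by a small gap. Tagln had 23.9, 24.0 and 22.5 CPM on 2-kPa elastic, 34.0, 39.9 and 44.8 on 20-kPa elastic, 31.0, 29.0 and 26.6 on 2-kPa viscoelastic, and 29.9, 23.9 and 25.6 on 20-kPa viscoelastic gels. Its 20-kPa elastic samples were above all others.

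Myl9, whose phosphorylation switches smooth muscle and non-muscle myosin on, had 57.8, 50.8 and 49.8 CPM on 2-kPa elastic, 70.2, 72.4 and 76.6 on 20-kPa elastic, 68.5, 66.8 and 67.2 on 2-kPa viscoelastic, and 64.6, 62.2 and 68.1 on 20-kPa viscoelastic gels. The groups on 2-kPa elastic and 20-kPa elastic gels stood below and above the viscoelastic groups without overlap. Tpm2, a tropomyosin that lies along actin filaments, showed the same arrangement, with 154, 144 and 139.6 CPM, then 198, 199 and 219.7 CPM on the elastic gels of 2 and 20 kPa, and 175, 188 and 172, then 173, 165 and 184 CPM on the viscoelastic gels of 2 and 20 kPa. Tpm1 had 440.1, 424 and 442 CPM on 2-kPa elastic, 530.0, 563 and 609.8 on 20-kPa elastic, 523, 501 and 509 on 2-kPa viscoelastic, and 578, 538 and 604 on 20-kPa viscoelastic gels. In Tpm1 both 20-kPa groups overlapped each other and lay above both 2-kPa groups.

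Srf, the transcription factor itself, had the narrowest range of group means. Its 2-kPa elastic samples held 27.6, 25.1 and 23.2 CPM, with 26.4, 28.5 and 31.2 on 20-kPa elastic, 26.3, 23.1 and 26.6 on 2-kPa viscoelastic, and 27.9, 27.3 and 28.3 on 20-kPa viscoelastic gels. Its highest and lowest group means differed 1.13-fold, and the elastic groups of 2 and 20 kPa overlapped.

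The question of a stiffness response was put first to elastic gels. On 20-kPa compared with 2-kPa elastic gels, 9 of the 10 contractile genes were up-regulated (edgeR quasi-likelihood test, Benjamini-Hochberg adjusted p under 0.05 over all 14542 genes). Over all tested genes 14% were called in this comparison and 6.81% were called up. The largest log2 fold change was that of Actg2, 0.97 (SE 0.107, adjusted p = 6.63e-05), followed by Tagln with 0.75 (SE 0.0989, adjusted p = 0.000257). Acta2 rose by 0.57 (SE 0.0816, adjusted p = 0.000451), Cnn1 by 0.60 (SE 0.0799, adjusted p = 0.000264) and Acta1 by 0.68 (SE 0.188, adjusted p = 0.0252). The rise was smaller in Tpm2 (0.50), Myl9 (0.47), Cnn2 (0.43) and Tpm1 (0.38), with adjusted p from 0.000238 to 0.00168. Srf did not pass, at 0.18 (95% interval 0.011 to 0.35, adjusted p = 0.147). The median over the 10 genes was 0.53, against -0.0083 over all tested genes. In 9 genes, all but Srf, the samples of both groups did not overlap, which held in this direction for 17.8% of tested genes. The call of Acta1 depended on single samples. Its edgeR adjusted p was 0.0521 and 0.109 without replicates 1 and 2 of the 2-kPa elastic gels, and 0.0769 and 0.132 without replicates 2 and 3 of the 20-kPa elastic gels.

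On viscoelastic gels the same difference in stiffness called only Acta1, which rose by 0.76 (SE 0.184, edgeR adjusted p = 0.0425). Over all tested genes 2.28% were called here and 1.58% were called up. The call of Acta1 was lost in 9 of the 12 fits without a sample and held without replicates 1 or 3 of the 20-kPa elastic or replicate 2 of the 20-kPa viscoelastic gels. In the 9 fits its log2 fold change lay between 0.66 and 0.83 and its adjusted p between 0.0530 and 0.155, the highest without replicate 3 of the 20-kPa viscoelastic gels. Samples of the elastic groups enter this comparison through the shared estimate of spread, the filter on low counts and the scaling. Acta2 differed by -0.15 (95% interval -0.32 to 0.026), Tagln by -0.13 (-0.34 to 0.085), Cnn1 by -0.20 (-0.36 to -0.028) and Actg2 by -0.30 (-0.52 to -0.067). None of these 4 passed the adjusted test, and their estimates were below 0 where those on elastic gels were above. Tpm1 and Srf were higher on 20-kPa gels without overlap between samples, as was Acta1, with log2 fold changes of 0.17 (95% interval 0.023 to 0.31) and 0.14 (-0.033 to 0.30). In this direction 13.6% of tested genes had samples that did not overlap. For Cnn2, Myl9 and Tpm2 the intervals were -0.11 to 0.13, -0.19 to 0.079 and -0.18 to 0.10. The median over the 10 genes was -0.046, against 0.0079 over all tested genes.

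Whether the stiffness response differed between elastic and viscoelastic gels was tested by the interaction, which subtracts the log2 fold change on elastic gels from that on viscoelastic gels. It was called below 0 in 7 of the 10 contractile genes, against 3.12% of all tested genes called in that direction and 7.56% in either. Actg2 had the largest difference, -1.26 (SE 0.151, edgeR adjusted p = 0.000228). Tagln followed with -0.88 (SE 0.140, adjusted p = 0.00153), Cnn1 with -0.79 (SE 0.112, adjusted p = 0.000637) and Acta2 with -0.71 (SE 0.115, adjusted p = 0.00163). Tpm2 (-0.53), Myl9 (-0.52) and Cnn2 (-0.42) completed the group, with adjusted p from 0.00241 to 0.00477. The other 3 genes were not called. Their differences were -0.22 in Tpm1 (95% interval -0.42 to -0.018), -0.043 in Srf (-0.28 to 0.19) and 0.080 in Acta1 (-0.48 to 0.64). The same 7 genes were called under each of the 17 alternative fits, including those without each of the 12 samples.

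**Figure D3:**
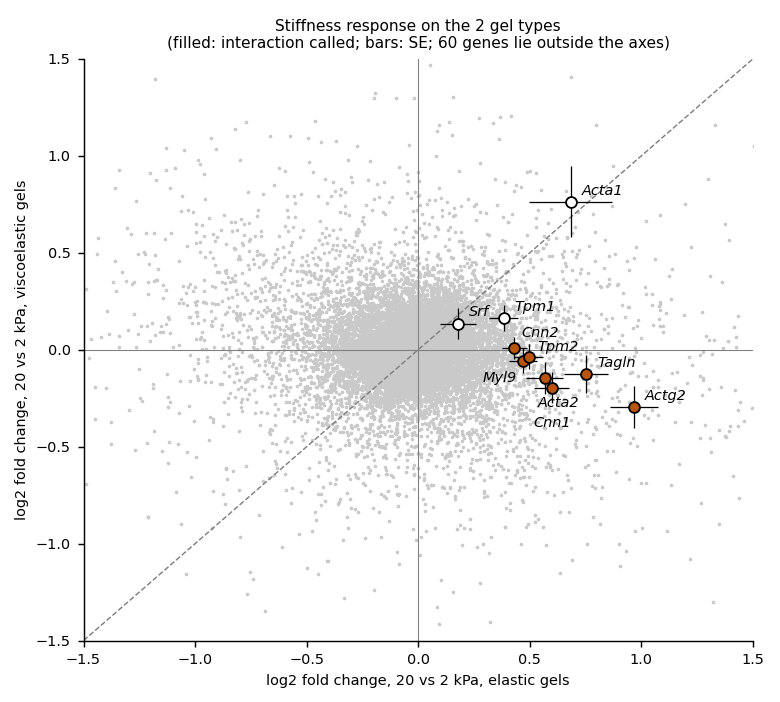
Log2 fold change from 2 to 20 kPa on elastic gels (horizontal) and on viscoelastic gels (vertical) for the 14542 tested genes in grey and the 10 contractile genes with SE bars, of which 60 genes lie outside the axes and those with a called interaction are filled. The 7 filled genes lie at 0.43 to 0.97 on the horizontal axis and at -0.30 to 0.010 on the vertical axis, below the dashed line of equal response, while Acta1 lies close to that line.

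Viscoelastic and elastic gels were then compared at equal stiffness. At 2 kPa, 8 of the 10 contractile genes were up-regulated on viscoelastic gels, all but Srf and Acta1. Over all tested genes 19.9% were called in this comparison and 8.77% were called up. Cnn1 had the largest log2 fold change, 0.54 (SE 0.0800, edgeR adjusted p = 0.000479), then Actg2 with 0.45 (SE 0.108, adjusted p = 0.00984), Myl9 with 0.35 (SE 0.0635, adjusted p = 0.00164) and Cnn2 with 0.33 (SE 0.0560, adjusted p = 0.00104). Tpm2 rose by 0.29 (SE 0.0660, adjusted p = 0.00695). The calls of Acta2 (0.28, adjusted p = 0.0264), Tagln (0.30, adjusted p = 0.0471) and Tpm1 (0.23, adjusted p = 0.0234) were weaker. Srf was level to within an interval of -0.17 to 0.17, and Acta1 had 0.12 (95% interval -0.29 to 0.53). The median over the 10 genes was 0.29, against -7.47e-05 over all tested genes, and in the 8 called genes the samples of both groups did not overlap, as in 16.6% of tested genes in this direction.

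Under every alternative 5 of these calls held, those of Cnn1, Cnn2, Myl9, Tpm2 and Actg2. The adjusted p of Acta2 was 0.0722 and 0.0982 without replicates 2 and 3 of the 2-kPa elastic gels and 0.0701 without replicate 1 of the 2-kPa viscoelastic gels. That of Tpm1 was 0.0669 and 0.0906 without replicates 1 and 2 of the 2-kPa elastic gels, and 0.0524 and 0.0568 without replicates 1 and 3 of the 2-kPa viscoelastic gels. Tagln lost its call in 7 of the 12 fits without a sample, with adjusted p from 0.0611 to 0.126, namely without any replicate of the 2-kPa elastic gels, replicate 2 of the 20-kPa elastic, replicates 1 or 2 of the 2-kPa viscoelastic or replicate 3 of the 20-kPa viscoelastic gels. The 2-kPa comparison called 5 contractile genes without replicate 2 of the elastic gels and also without replicate 1 of the viscoelastic gels.

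At 20 kPa the contractile genes went the other way. On viscoelastic gels 5 of the 10 were down-regulated and none was up-regulated, where 33.5% of all tested genes were called and 16.1% were called down. At an unadjusted p under 0.05 the count was 6, the sixth being Myl9. Actg2 fell by 0.81 on the log2 scale (SE 0.106, edgeR adjusted p = 0.00014), Tagln by 0.58 (SE 0.0981, adjusted p = 0.000585) and Acta2 by 0.44 (SE 0.0815, adjusted p = 0.00113). Cnn1 fell by 0.26 (SE 0.0786, adjusted p = 0.0217) and Tpm2 by 0.24 (SE 0.0658, adjusted p = 0.0117). Myl9 lay at the threshold, at -0.17 (95% interval -0.30 to -0.035, adjusted p = 0.0502). For Cnn2 the difference was -0.086 (-0.21 to 0.033), for Tpm1 0.014 (-0.13 to 0.16), for Srf -0.043 (-0.21 to 0.12) and for Acta1 0.20 (-0.18 to 0.58). In 7 genes, the 5 that were called with Cnn2 and Myl9, the viscoelastic samples all lay below the elastic ones, as in 23.7% of tested genes in this direction. The median over the 10 genes was -0.21, against 0.016 over all tested genes.

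The calls of Acta2, Tagln and Actg2 at 20 kPa held under every alternative. That of Tpm2 was lost without replicate 3 of the 20-kPa elastic gels (adjusted p = 0.0656) and without replicate 2 of the 20-kPa viscoelastic gels (adjusted p = 0.0525). That of Cnn1 was lost without replicates 2 and 3 of the elastic gels (0.0907 and 0.0726) and without replicates 1 and 2 of the viscoelastic gels (0.0627 and 0.0870). Myl9 was called in 6 of 18 alternatives, with adjusted p from 0.0301 in DESeq2's Wald test. Among the fits without a sample it was called without replicate 1 of the 2-kPa elastic gels (0.0306), replicate 1 of the 20-kPa elastic gels (0.0340) and replicate 2 of the 2-kPa viscoelastic gels (0.0454).

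**Figure D4:**
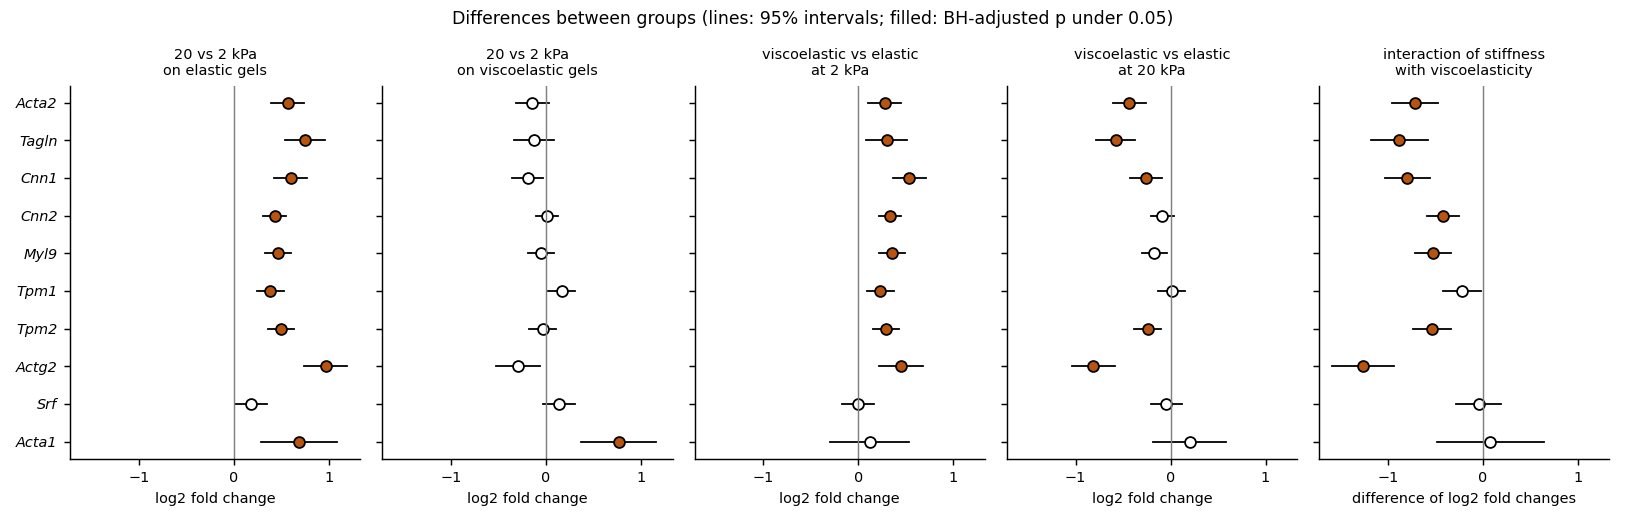
Log2 fold changes of the 10 contractile genes in the comparisons of 2 groups and, in the last panel, the interaction, with lines for 95% intervals and filled points for edgeR adjusted p under 0.05 over all tested genes. The numbers of filled points are 9, 1, 8, 5 and 7 from left to right, and the points of Srf stay between -0.043 and 0.18.

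Averaged over both stiffnesses, viscoelastic gels differed from elastic gels in few contractile genes. The differences at 2 and at 20 kPa had opposite signs in the 7 genes with a called interaction. Cnn2 (0.12, edgeR adjusted p = 0.0214) and Tpm1 (0.12, adjusted p = 0.0491) were called up and none was called down, where 40% of all tested genes were called and 19.6% were called up. Cnn2 was called in 13 and Tpm1 in 5 of 17 alternative fits. Among the other genes, Cnn1 was called up in 3 and Myl9 in 2 of these fits. Actg2 was called down in 4 and Tagln in 2. The comparisons at 2 and at 20 kPa share no sample with each other, but each shares its samples with the stiffness comparisons.

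The closeness of other genes to the pattern of Acta2 was measured as the root mean square distance between centred log2 CPM values over the 12 samples. Of 14541 genes ranked by nearness, Tpm2 had rank 3 (0.0929), Tagln 8 (0.104), Myl9 13 (0.111) and Cnn1 38 (0.129). Cnn2, Tpm1, Srf and Actg2 had ranks 125, 415, 748 and 1418, and Acta1 ranked 11695 with a distance of 0.403. The median tested gene had 0.285. Actg2 follows the same order of groups as Acta2 with a wider range, which this distance counts as unlike. Outside the list the nearest were Ak4 (0.0755), Map6 (0.0816), Tpm4 (0.0975), Jph2 (0.1003) and Hspb7 (0.102). Ak4 is a mitochondrial adenylate kinase, Map6 binds microtubules, Tpm4 is a tropomyosin, Jph2 joins membranes in muscle cells and Hspb7 is a small heat shock protein of muscle. Their levels followed the same order of groups, for example Map6 with 62.8, 69.1, 72.7 and 84.6 mean CPM on 2-kPa elastic, 20-kPa viscoelastic, 2-kPa viscoelastic and 20-kPa elastic gels. Genes with small changes lie near any modest pattern in this measure, so likeness is a description.

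The regulators of the program were read from a list of 12 genes. Mrtfa and Mrtfb, which encode the coactivators MRTF-A and MRTF-B, had 32.9 to 39.9 and 38.8 to 44.2 mean CPM. Mrtfa was lower on 20-kPa viscoelastic than on 20-kPa elastic gels (log2 fold change -0.28, edgeR adjusted p = 0.00331), and Mrtfb had -0.18 there (adjusted p = 0.0553). Neither passed in the stiffness comparison on elastic gels, in which 9 contractile genes rose (0.073, adjusted p = 0.464, and -0.013, adjusted p = 0.925). Myocd, the coactivator of smooth muscle cells, lay between 0.141 and 0.789 CPM in the 12 samples. It rose with stiffness on elastic gels (1.38, SE 0.393, edgeR adjusted p = 0.0295) and fell on viscoelastic gels at 20 kPa (-1.14, SE 0.376, adjusted p = 0.0297). Rhoa was called in none of the comparisons, with adjusted p from 0.0896 to 0.355 in those of 2 groups. Its relative Rhob was called in 3, up by 0.30 with stiffness on elastic gels and by 0.27 on viscoelastic gels at 2 kPa, and it fell by 0.22 on viscoelastic gels at 20 kPa. Its interaction was -0.50 (SE 0.105, adjusted p = 0.0098). Of the 12 regulators 4 rose and none fell with stiffness on elastic gels, and none was called in edgeR on viscoelastic gels, where 2 had an unadjusted p under 0.05. On viscoelastic gels 1 rose and 1 fell at 2 kPa, and 6 fell at 20 kPa. The shares of all tested genes called in either direction were 14% and 2.28% with stiffness on elastic and viscoelastic gels. Between the gel types they were 19.9% at 2 kPa and 33.5% at 20 kPa.

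Of 23 other genes of the actin and myosin apparatus, 22 were tested. With stiffness 7 rose and none fell on elastic gels, and 1 fell on viscoelastic gels, Actn1 (-0.27, edgeR adjusted p = 0.0441), which encodes the crosslinker alpha-actinin. On viscoelastic gels 5 rose and 2 fell at 2 kPa, and 4 rose and 10 fell at 20 kPa. Over all tested genes 19.9% were called in either direction between the gel types at 2 kPa and 33.5% at 20 kPa. With stiffness 14% were called on elastic and 2.28% on viscoelastic gels. Lmod1, a leiomodin that nucleates actin in smooth muscle, had the order of groups seen in Acta2. Its 2-kPa elastic samples held 8.26, 7.69 and 6.53 CPM, with 12.3, 11.95 and 15.7 on 20-kPa elastic, 12.6, 11.6 and 10.9 on 2-kPa viscoelastic, and 8.73, 8.97 and 9.93 on 20-kPa viscoelastic gels. Its 20-kPa viscoelastic samples lay between those of 2-kPa elastic and 2-kPa viscoelastic gels. Myh11, the smooth muscle myosin heavy chain, was low, at 0.88 to 3.50 CPM, and rose with stiffness on elastic gels (1.41, adjusted p = 0.000609).

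The list also holds genes of non-muscle cells. Myh9, the non-muscle myosin heavy chain, was not called on 2-kPa gels (-0.090, edgeR adjusted p = 0.470) and fell on 20-kPa viscoelastic gels (-0.45, adjusted p = 0.000897). Actb rose with stiffness on elastic gels (0.31, adjusted p = 0.0196) and was equal on elastic and viscoelastic gels at 20 kPa to within its error. Actg1, the cytoplasmic gamma-actin, fell on viscoelastic gels at 20 kPa (-0.42, adjusted p = 0.0177). Mylk, the kinase that phosphorylates the product of Myl9, rose there (0.66, adjusted p = 0.000671), with 44.9, 63.9 and 46.5 CPM against 36.7, 30.0 and 31.8.

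Among 16 other target genes of MRTF and SRF, 6 rose and none fell with stiffness on elastic gels, and none of the 16 was called on viscoelastic gels, where 1 had an unadjusted p under 0.05. On viscoelastic gels 7 rose and 1 fell at 2 kPa, and 1 rose and 9 fell at 20 kPa. Of all tested genes 19.9% and 33.5% were called in either direction between the gel types at 2 and at 20 kPa. The shares with stiffness were 14% on elastic and 2.28% on viscoelastic gels. Filip1l, a filamin-interacting protein gene, had the lowest adjusted p with stiffness on elastic gels (0.76, edgeR adjusted p = 2.65e-05). It rose at 2 kPa (0.51, adjusted p = 0.000315) and fell at 20 kPa (-0.30, adjusted p = 0.00491), the directions of Acta2. Vcl, the focal adhesion gene vinculin, fell at 20 kPa (-0.70, adjusted p = 0.000965) without a call at 2 kPa (-0.28, adjusted p = 0.140), and 25.5% of its exon bases overlap Ap3m1 on the opposite strand. Itga5, the fibronectin receptor subunit, was the target that fell at 2 kPa (-0.50, adjusted p = 0.00521), and Ccn1, a matricellular gene, was the target that rose at 20 kPa (0.45, adjusted p = 0.0299).

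In the matrix genes of myofibroblasts calls were made in both directions. Of 12 such genes, 2 rose and 2 fell with stiffness on elastic gels, and none was called on viscoelastic gels, where 6 had an unadjusted p under 0.05 in edgeR. None rose and 2 fell on viscoelastic gels at 2 kPa, and 3 rose and 3 fell at 20 kPa. Among all tested genes 19.9% were called in either direction between the gel types at 2 kPa and 33.5% at 20 kPa. With stiffness the shares were 14% on elastic and 2.28% on viscoelastic gels. Fap, a surface protease of activated fibroblasts, fell with stiffness on elastic gels (-1.03, edgeR adjusted p = 0.00185) and at 2 kPa on viscoelastic gels (-1.67, adjusted p = 6.29e-05). At 20 kPa Postn, the matricellular protein periostin, rose (0.69, adjusted p = 0.000225) and Tnc, tenascin-C, fell (-0.65, adjusted p = 0.000109). The medians of the lists over all their tested genes stand against 0.53, -0.046, 0.29 and -0.21 of the contractile genes in the order of the plot of pathway lists. They were 0.14, -0.015, 0.0085 and -0.20 for regulators, 0.19, -0.019, 0.074 and -0.19 for other actomyosin genes, 0.24, -0.10, 0.090 and -0.26 for other targets, and -0.074, 0.035, 0.015 and -0.017 for matrix genes.

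**Figure D5:**
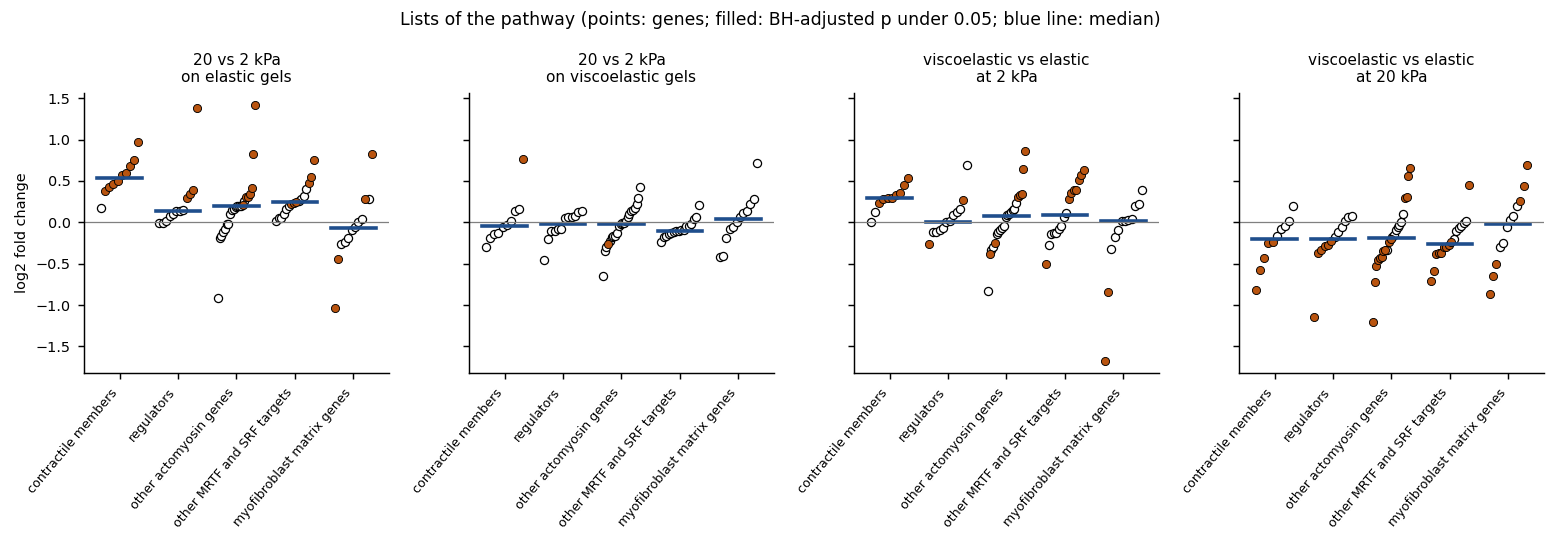
Log2 fold change of each tested gene (points, filled where the edgeR adjusted p is under 0.05) in the contractile genes and 4 other lists, with blue lines for list medians, in the comparisons of 2 groups. The contractile genes have the highest median with stiffness on elastic gels (0.53), and theirs lies near 0 on viscoelastic gels (-0.046), above 0 on viscoelastic gels at 2 kPa (0.29) and below 0 at 20 kPa (-0.21).

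The labelled cell type was checked against markers. The summed CPM of 8 fibroblast genes lay between 17054 and 20351 in all 12 samples. Of 11 smooth muscle and pericyte genes, 4 were under 1 CPM in every sample, among them Des and Myocd, and the sum was 794 to 882 on 2-kPa elastic, 699 to 834 on 20-kPa elastic, 631 to 647 on 2-kPa viscoelastic and 584 to 623 on 20-kPa viscoelastic gels. Most of this sum came from the pericyte genes Cspg4 and Pdgfrb, and its order of groups was not that of Acta2. The smooth muscle genes Myh11, Lmod1 and Myocd of this list did have the order of group means of Acta2, and these 3 rose with stiffness on elastic gels. Des went the other way, with means of 0.284 CPM on 2-kPa and 0.150 CPM on 20-kPa elastic gels. Over all 11 genes 5 estimates of this comparison were above 0 and 6 below. There 3 were called up and 1 down, where 14% of all tested genes were called. The part of smooth muscle cells in the levels of the contractile genes was not tested. Of 10 skeletal muscle genes 8 were under 1 CPM in every sample. Cartilage genes were abundant, with 5 genes summing to 3971 to 5575 CPM, mainly Col2a1 and Acan, and their sum was lower on 20-kPa elastic gels (3971 to 4066) than on 2-kPa elastic gels (4370 to 5575). On viscoelastic gels it was 4216 to 5331 at 2 kPa and 4084 to 5410 at 20 kPa, ranges that overlap that of 2-kPa elastic gels. The part of cartilage cells in the levels of the contractile genes was not tested.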

How the data were processed

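RNA-seq of mouse ear fibroblasts on 4 kinds of alginate gel gave 12 samples, 3 per group, grouped by their titles. Per the labels the authors used Trimmomatic for trimming, STAR for alignment to mm10 and featureCounts for counting, on a GENCODE annotation, and the deposited table holds raw counts per gene symbol without normalization. The annotation release, strand setting and handling of multi-mapping reads are not given in the sources used here. Totals were 36626221 to 43612804 counts per sample. Pairs of replicates differed by 11.2 to 55.5 times the variance of counting alone, so no library was a copy of another.

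Counts were tested with edgeR 4.0.16 (R 4.3.3). After filterByExpr (minimum count 10) and TMM scaling, the quasi-likelihood model, with the 4 groups as coefficients, took in all 12 samples and 14542 genes. Genes with a Benjamini-Hochberg adjusted p under 0.05 were called, and intervals are 95%. The biological coefficient of variation was 7.50%. On simulated counts for 14419 genes, the comparison of gels at 2 kPa called 72% of 100 genes changed by 0.6 on the log2 scale. It called 29.6% of 98 genes changed by 0.3. No other gene was changed, while 19.9% of tested genes were called in the data, so these rates need not hold there. CPM values are TMM-normalized, and the distance to Acta2 used log2 CPM with a prior count of 2. Exon lengths, positions and overlaps came from GENCODE M21 (mm10), and 50-base stretches were compared between transcripts.

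The 10 genes, the gene lists and the tests were chosen with earlier results of these data known. Named are all 10 contractile genes, Mrtfa, Mrtfb, Myocd, Rhoa, Myh9, Myh11, Mylk, Actb, Actg1 and Vcl, in each comparison of 2 groups the called gene of each list that rose and that fell with the lowest adjusted p, and the 5 genes nearest to Acta2. Of the genes this rule takes, 1 is not reported here, though it counts in its list. The alternatives were scaling by total counts alone or by DESeq2's size factors, no filter beyond 1 count, a replicate block, DESeq2 1.42.0's Wald test, the compared groups only, an adjusted p under 0.01 and leaving out each sample. The other assays of the study were not used here.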

Additional observations from a re-analysis of the deposited data

Results flagged for a closer look

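In 14 of 35 named genes the response to stiffness differed between viscoelastic and elastic gels by the interaction test (edgeR, adjusted p under 0.05 over all tested genes). Of these, 7 are contractile genes, with differences of log2 fold change (viscoelastic minus elastic) of -1.26 in Actg2, -0.88 in Tagln, -0.79 in Cnn1, -0.71 in Acta2, -0.53 in Tpm2, -0.52 in Myl9 and -0.42 in Cnn2. The others were Myh11 (-2.06), Lmod1 (-1.17), Filip1l (-0.80), Rhob (-0.50), Tnc (-0.47), Actn1 (-0.46) and, with the opposite sign, Fap (1.76). The named genes outside the contractile list were mostly picked by their adjusted p in these same samples, so their number is no measure of how common such a difference is. The signs were negative in 13 of the 14. No group of 3 samples was searched for single outlying samples.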

How the results depend on the processing

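The 7 interaction calls among the contractile genes held in every alternative. With stiffness on elastic gels 8 to 9 genes were called in the other settings and 8 to 9 without each sample in turn. The count at 2 kPa (8 in the report) was 5 to 8 without each sample, that at 20 kPa (5) was 3 to 6, that of stiffness on viscoelastic gels (1) was 0 to 1, that of the mean viscoelastic effect (2) was 0 to 4, and that of the interaction was 7 throughout. At an adjusted p under 0.01 these counts were 5 at 2 kPa, 3 at 20 kPa, 0 for stiffness on viscoelastic gels and 0 for the mean effect, and over all genes 1352, 2733, 9 and 3730, with 855 for stiffness on elastic gels and 400 for the interaction. The mean effect called 1 contractile gene up with DESeq2's size factors and 4 up with total counts alone. With every gene tested it called only Actg2, which fell (-0.18, edgeR adjusted p = 0.0379), and Cnn2 and Tpm1 lost their calls. Stiffness on viscoelastic gels called 653 genes of all with every gene tested, 760 with DESeq2's Wald test, and 38 (0 contractile genes) with the compared groups only. Without each sample the counts over all genes were 1063 to 2369 (stiffness, elastic), 9 to 351 (stiffness, viscoelastic), 1545 to 3085 (2 kPa), 3177 to 5381 (20 kPa), 4914 to 6061 (mean) and 670 to 1182 (interaction). The cause of these changes was not tested, beyond the smaller number of samples or stricter threshold.

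Deviations of same-numbered replicates were compared in 18 pairs (r from -0.200 to 0.308, 2 above 0.1). The 2 values above 0.1, 0.184 and 0.308, were those of replicates 1 and 2 between the 2 viscoelastic groups. Replicate 3 had 0.0483 there. With 3 samples per group this cannot decide whether the numbers pair the samples. With the replicate block the contractile genes called were 7 at 2 kPa, 0 for stiffness on viscoelastic gels, 1 for the mean effect and 7 for the interaction. Of all genes, 154 were called for stiffness on viscoelastic gels. The block changed the calls of Tagln at 2 kPa (edgeR adjusted p = 0.0713), Acta1 on viscoelastic gels (0.0585) and Tpm1 in the mean effect (0.0579).

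Signs turned where differences were near 0. They were -0.000348 with DESeq2's size factors and -0.00123 with its Wald test for Tpm1 at 20 kPa, 0.0157 with total counts alone for the mean effect on Srf, -0.00167 with the replicate block for Srf at 2 kPa, and -0.00717 with the compared groups only for Cnn2 with stiffness on viscoelastic gels. Without each sample in turn, the lowest and highest values were -0.058 and 0.067 for Srf and -0.012 and 0.22 for Acta1 at 2 kPa, -0.051 and 0.068 for Tpm1, -0.12 and 0.020 for Srf and -0.020 and 0.38 for Acta1 at 20 kPa, -0.028 and 0.039 for Cnn2 and -0.079 and 0.0048 for Tpm2 with stiffness on viscoelastic gels, -0.054 and 0.012 for the mean effect on Srf, and -0.13 and 0.020 for Srf and -0.15 and 0.26 for Acta1 in the interaction. None of these values was called. Scaling moved the median of all genes by at most 0.038.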
